A study of Mus musculus with 2 samples.

Results

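The regions described here are E2F1 ChIP-seq peaks that lay inside a gene, outside its promoter and no more than 5000 bp from its transcription start site (TSS). They were chosen by position alone, from the class and the distance that the authors' peak table gives for each pair of a peak and a gene. A peak was kept if none of its entries carried the promoter class and at least 1 placed it inside a gene at 5000 bp or less. This gave 378 of 5667 listed peaks, or 6.67% (exact Clopper-Pearson 95% interval 6.03% to 7.35%), and 16.5% of the 2288 peaks that lay inside a gene and at no promoter. The 378 peaks named 371 genes, against 5587 gene symbols in the whole table. Chromatin came from cultured primary hepatocytes, the parenchymal liver cells, of C57Bl6J mice. All cells, those used for input included, carried the adenovirus Ad-E2F1 and were harvested 36 h after infection, so the table compares E2F1-bound chromatin with input chromatin of the same kind of culture and holds no cells without the vector. There is 1 record for ChIP and 1 for input, while the series text speaks of 2 replicates, each pooled from separate ChIPs. The table is not split by replicate, so no value below carries a replicate error. A peak table does not measure expression, so the labelled cell type could not be checked against markers.

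E2F1 is a transcription factor that binds DNA together with a DP partner and is held in check by the retinoblastoma protein. It is best known for switching on S phase genes from sites close to their start, and in liver it has also been linked to glucose and lipid metabolism. The first part of a gene body holds the first exons and the first intron, where enhancers and alternative start sites often lie. Whether a peak lay in an exon or an intron of its host gene is not stated, since no annotation of the mm9 build was used here. The authors' table marks 2 of the 378 peaks as lying in the 3' untranslated region of a further gene.

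The table gives a 301 bp window around every summit, and distances run from the near edge of that window to the TSS. The authors' promoter class reached up to 1980 bp upstream and 499 bp into a gene, so the selected peaks began where that class ended, at 504 bp. Their median distance was 1734 bp (quartiles 894.75 and 3090.5 bp, farthest 4967 bp). At the lower end stood Hexim2 at 504 bp with a fold of 33.18, Slc36a4 at 508 bp with 4.74, and Spice1 and Tagln2 at 510 bp with 8.07 and 5.84. Just on the promoter side of that end were Banp at 499 bp with a fold of 13.94, Pcif1 at 498 bp with 7.13 and Gprc5c at 496 bp with 6.21. At the far end stood Ubxn4 at 4927 bp with a fold of 2.97, 1700027A23Rik at 4960 bp with 3.50 and Ncstn, a subunit of gamma-secretase, at 4967 bp with 3.49. Just outside were Dennd1b at 5025 bp with 3.82, Fam111a at 5068 bp with 18.09 and Mtr at 5081 bp with 3.51. Hexim2, Banp and Fam111a were the high ones among these peaks, 1 inside and 1 outside at the lower end and 1 outside at the far end.

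No genome of the mm9 build was used here, so the sequence under the peaks is not shown. What could be shown is the DNA before the start of the same genes, from RefSeq (GRCm38.p6). The first set holds the 3 genes whose own promoter peak, separate from the intragenic one, was strongest. The second holds the 3 genes with the strongest intragenic peak and no listed promoter peak, both sets taken among genes found in the RefSeq promoter table under the symbol the peak table uses. Hexim2 and 2900092E17Rik, with stronger peaks than Nudcd3, were not found under those symbols. Whether these starts are the ones used in the peak table was not checked. Each run gives the 250 bases before the most upstream start in that table, 5′ to 3′ on the gene's strand, with any match to a searched E2F motif in capitals. Hnrnpab lies at chr11:51606882-51607131 (minus strand), Abcf2 at chr5:24577468-24577717 (minus strand) and Spsb3 at chr17:24885732-24885981 (plus strand). Fancl lies at chr11:26386834-26387083 (plus strand), Uhrf1 at chr17:56303087-56303336 (plus strand) and Nudcd3 at chr11:6200452-6200701 (minus strand).
Hnrnpab: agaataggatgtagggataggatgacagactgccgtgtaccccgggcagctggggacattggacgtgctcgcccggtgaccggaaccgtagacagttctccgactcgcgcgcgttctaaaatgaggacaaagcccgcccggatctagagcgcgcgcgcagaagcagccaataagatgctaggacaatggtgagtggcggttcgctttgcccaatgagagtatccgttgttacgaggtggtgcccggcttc
Abcf2: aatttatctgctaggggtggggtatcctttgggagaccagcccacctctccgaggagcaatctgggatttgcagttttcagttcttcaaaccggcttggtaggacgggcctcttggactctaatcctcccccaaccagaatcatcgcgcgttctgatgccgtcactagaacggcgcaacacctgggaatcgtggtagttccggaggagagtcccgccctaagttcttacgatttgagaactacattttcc
Spsb3: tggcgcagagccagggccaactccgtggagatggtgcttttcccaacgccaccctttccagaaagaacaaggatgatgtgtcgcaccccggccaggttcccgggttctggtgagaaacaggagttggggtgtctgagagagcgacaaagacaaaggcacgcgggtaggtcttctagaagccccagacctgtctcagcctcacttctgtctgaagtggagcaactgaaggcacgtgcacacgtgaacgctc
Fancl: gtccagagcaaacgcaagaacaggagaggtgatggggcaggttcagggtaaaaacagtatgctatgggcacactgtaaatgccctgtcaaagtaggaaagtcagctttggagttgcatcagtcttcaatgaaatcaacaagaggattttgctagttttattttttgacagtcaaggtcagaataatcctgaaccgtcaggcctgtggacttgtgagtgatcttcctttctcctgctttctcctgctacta
Uhrf1: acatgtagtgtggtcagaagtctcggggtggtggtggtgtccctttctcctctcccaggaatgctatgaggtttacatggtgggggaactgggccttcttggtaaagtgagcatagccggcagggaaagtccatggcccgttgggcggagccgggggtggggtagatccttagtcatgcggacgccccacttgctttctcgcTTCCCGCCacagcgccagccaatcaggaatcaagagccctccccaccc
Nudcd3: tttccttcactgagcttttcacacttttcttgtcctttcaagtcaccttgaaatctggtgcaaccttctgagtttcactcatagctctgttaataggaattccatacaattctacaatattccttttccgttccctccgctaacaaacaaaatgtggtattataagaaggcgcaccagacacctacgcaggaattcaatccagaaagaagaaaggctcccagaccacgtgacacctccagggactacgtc

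For these sequences genes were matched by symbol alone. The motifs searched were TTTCCCGC, TTTGGCGC and GGCGGGAA, common spellings of the E2F site, on both strands; TTTCCCGC overlaps the reverse complement of GGCGGGAA. Among the 6 sequences, Uhrf1 held 1 match to GGCGGGAA, whose first base lay 48 bases before the start, and the other 5 held none. The Fancl and Nudcd3 sequences had 2 and 6 CG pairs and a GC content of 44.4% and 43.2%, the lowest of the 6, while Hnrnpab had 23 CG pairs and 58.4%. Over all 27025 genes of the RefSeq table, 3.10% held at least 1 of the motifs in any of their promoter sequences of this length. Of the 2108 matched genes with a promoter peak 11.6% did (95% interval 10.2% to 13%). Of the 237 matched genes with an intragenic peak within 5000 bp and no promoter peak, 7 or 2.95% did (1.20% to 5.99%), which is close to the share over all genes. Genes of deeper intragenic peaks with no promoter peak were similar, with 3.24% at 5 to 20 kb (1.49% to 6.06%) and 4.79% beyond 20 kb (3.28% to 6.73%). TTTGGCGC was found at 0 of the 280 matched genes with such an intragenic peak (interval up to 1.31%), against 1.94% of genes with a promoter peak and 0.485% of all genes, so that the count was near the background. By base composition, the promoters of the 237 genes had a median of 15 CG pairs (95% interval of the median 12 to 17), against 17 at genes with a promoter peak and 6 over all genes. For genes of deeper intragenic peaks with no promoter peak the median was 15.5 at 5 to 20 kb and 17 beyond 20 kb. A match is a description of letters, and no match says nothing of E2F1 binding there.

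In strength the intragenic peaks stood between promoter peaks and peaks deeper in genes. Fold is the authors' ratio of ChIP tags to the background expected from input, and tags are the sequenced fragments counted in a called region. The median fold was 4.705 (95% interval of the median, from order statistics, 4.45 to 4.97; quartiles 3.64 and 6.59; range 2.47 to 33.18). Promoter peaks with their window just downstream of a single TSS had a median fold of 5.38 (5.10 to 5.62, 267 peaks) and all 2625 promoter peaks 6.49 (6.34 to 6.67). Peaks inside genes at 5 to 20 kb had a median of 3.91 (3.79 to 4.11, 464 peaks) and those beyond 20 kb 3.81 (3.74 to 3.87, 1446 peaks). None of these intervals overlapped that of the 378 peaks; they cover counting over peaks and not the variation between cultures. Over all listed peaks the median was 4.93.

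At a fold of 10 or more, the share of peaks was lower than in the list as a whole, though the intervals overlapped. This fold was reached by 34 of the 378 peaks, or 8.99% (exact 95% interval 6.31% to 12.3%). Over all listed peaks it was reached by 12.8% (11.9% to 13.7%). The share was 12.4% for promoter peaks just downstream of the TSS, 4.53% for intragenic peaks at 5 to 20 kb and 2.01% beyond 20 kb. The interval of the 378 peaks overlapped that of the just downstream peaks (8.66% to 16.9%) and that of the peaks at 5 to 20 kb (2.82% to 6.84%). It did not overlap that beyond 20 kb (1.35% to 2.87%). A fold of 5 or more was reached by 169 peaks (44.7%, against 48.8% of all listed peaks). A false discovery rate of 1% or less was given for 143 peaks (37.8%, against 39.8% of all listed peaks), and a rate of 0 for 12 (3.17%, against 4.52%). For these 3 measures the share lay near the background of the list, whose value fell inside the interval of the 378 peaks (39.6% to 49.9%, 32.9% to 42.9% and 1.65% to 5.48%).

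**Figure D1:**
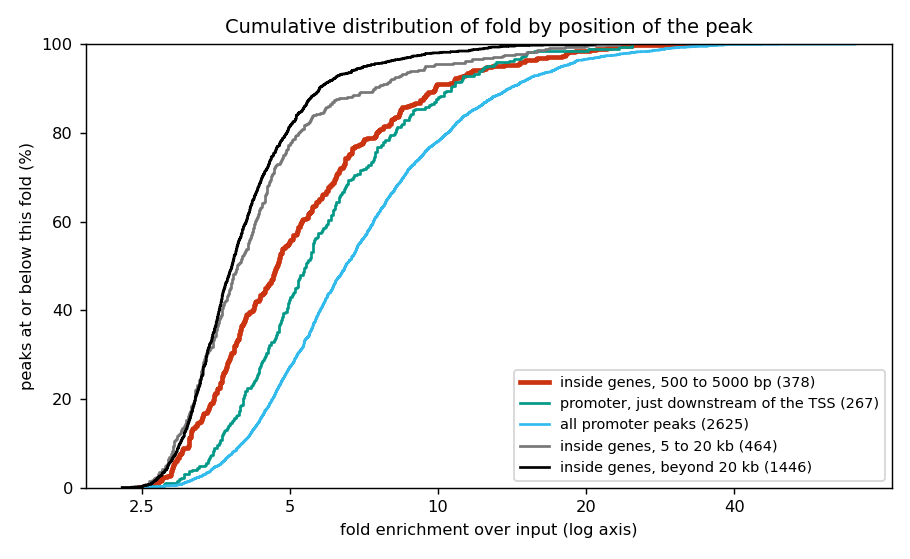
Cumulative distribution of the authors' fold over input (horizontal log axis) for 5 positional classes of peaks, with the percent of peaks at or below each fold on the vertical axis and the number of peaks in brackets. The curve of the 378 intragenic peaks, with a median of 4.705, runs at folds below 10 between that of promoter peaks just downstream of the TSS (5.38) and those of peaks deeper in genes (3.91 and 3.81).

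By tags the median also stood between promoter peaks and deeper peaks, and above that of the whole list, but most intervals overlapped. The peaks held a median of 163 tags (151 to 180). All promoter peaks had 167 (162 to 173), and those just downstream of the TSS 167 (157 to 180). The median was 146.5 at 5 to 20 kb (138 to 157), 130 beyond 20 kb (126 to 135) and 149 over all listed peaks (146 to 152). Only the interval beyond 20 kb lay apart from that of the 378 peaks. Their called regions were 2049.5 bp long in the median, against 1914 bp over all listed peaks, and held 73.5 tags per kb, against 81.4 at promoters and 66.9 at 5 to 20 kb. Per length, the peaks thus stood below all promoter peaks and above deeper positions. Their interval (71.6 to 75.5) overlapped that of promoter peaks just downstream of the TSS (74.1, 71.3 to 76.6). The median height of the pileup at the summit was 45, against 60 at promoters and 38 at 5 to 20 kb. Tags above the median also occurred at the lowest folds. Lims2, which codes for a focal adhesion adaptor, Ipo5, a nuclear import receptor, and Pdlim5, a PDZ and LIM domain protein, had the lowest folds of the 378 peaks. Their folds were 2.47, 2.58 and 2.61, with 265, 269 and 277 tags.

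Within the first 5000 bp the fold was highest next to the promoter class. The 111 peaks at 500 to 1000 bp had a median fold of 5.72 (5.16 to 6.28) and a median false discovery rate of 0.98%. The 97 peaks at 1000 to 2000 bp had 4.75 (4.32 to 5.24) and the 66 at 2000 to 3000 bp 4.695 (3.95 to 5.47). The 58 peaks at 3000 to 4000 bp had 3.93 (3.70 to 4.69) and the 46 at 4000 to 5000 bp 4.13 (3.56 to 4.57). The interval of the first step did not overlap those of the 2 farthest steps and overlapped the 2 in between. Peaks of fold 10 or more numbered 17, 3, 7, 4 and 3 in these 5 steps, so single strong peaks occurred at each distance.

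**Figure D2:**
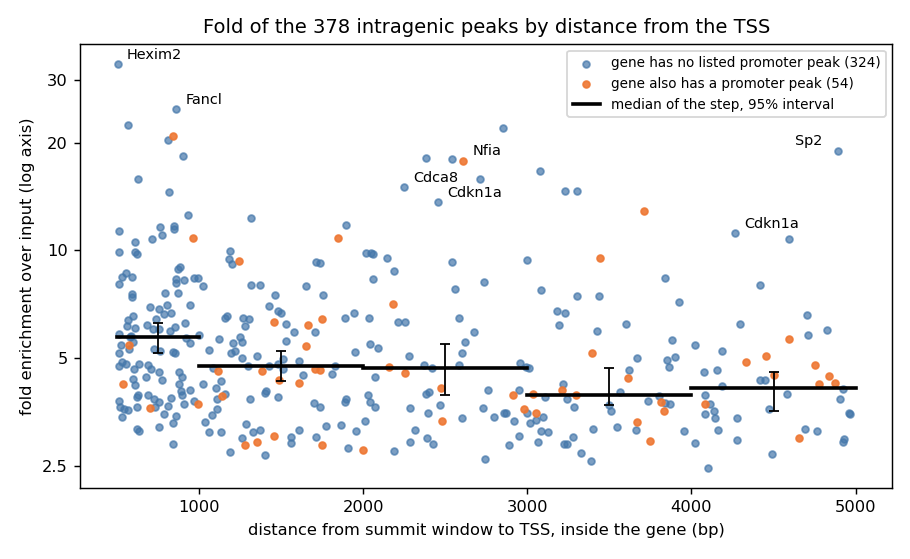
Each of the 378 peaks by distance from its summit window to the TSS (bp, inside the gene) and by the authors' fold over input (log axis). Orange points are the 54 peaks of genes that also had a promoter peak, and black bars are medians of each distance step with 95% order-statistic intervals; the median goes from 5.72 at 500 to 1000 bp to 4.13 at 4000 to 5000 bp, and Sp2 stands alone at 4894 bp with a fold of 19.01.

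A called region can be wider than its 301 bp window and reach back over the TSS. For 311 of the 378 peaks the strand of the gene could be taken from RefSeq. The TSS implied by the strand was the same to the base for all 491 genes of the table where more than 1 peak allowed the comparison. The called region held the TSS in 63 of the 311 peaks (20.3%, 15.9% to 25.2%). At 500 to 1000 bp it did so in 46 of 88 (52.3%), at 1000 to 2000 bp in 15 of 83 (18.1%) and beyond 2000 bp in 2 of 140 (1.43%). For many of the nearest peaks, then, enrichment was called over the TSS itself while the summit lay inside the gene. Counted together, regions did not lean to one side: 158 of 311 (50.8%) extended farther from the summit on the TSS side, as did 50.8% at 5 to 20 kb and 52.4% beyond 20 kb. By distance the median extents differed. They were 1041 bp toward the TSS and 840 bp away at 500 to 1000 bp, and 704 and 1012 bp at 1000 to 2000 bp. Beyond 2000 bp they were 832 and 871.5 bp.

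The 3 strongest of the 378 peaks lay in Hexim2, Fancl and Uhrf1. Windows below are mm9, counted from 1. Hexim2, which codes for an inhibitor of the elongation kinase P-TEFb, reached a fold of 33.18 (545 tags; chromosome 11, 102994247 to 102994547). Fancl, the ubiquitin ligase subunit of the Fanconi anaemia core complex, had 24.81 with 461 tags, 861 bp from the TSS, on chromosome 11 from 26286996 to 26287296. Uhrf1, which codes for the protein that reads hemimethylated DNA and brings in the maintenance methyltransferase, had 22.46 with 524 tags at 565 bp, on chromosome 17 from 56443309 to 56443609. The called regions of the Fancl and Uhrf1 peaks, 3029 and 3107 bp long, held the TSS, and for Hexim2 no strand was matched. These 3 peaks all lay within 1000 bp of the TSS, and none of the 3 genes had a peak of the promoter class.

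Of the 15 peaks of highest fold, 7 lay within 1000 bp. Magi1, a scaffold protein of cell junctions, had a fold of 20.95 at 839 bp and Nudcd3, a NudC domain protein, 20.31 at 809 bp. Mcm9, which codes for a helicase related to the replicative MCM proteins and active in recombination repair, had 18.40 with 431 tags at 900 bp. Coq2, the prenyltransferase of coenzyme Q synthesis, had 15.88 at 626 bp. The regions of Nudcd3, Mcm9 and Coq2 held the TSS and that of Magi1 did not.

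The other 8 lay from 2247 to 4894 bp inside, and no called region among them held the TSS. Sp2, a zinc finger transcription factor of the Sp family, was the farthest at 4894 bp, where its fold was 19.01 (chromosome 11, 96839079 to 96839379). Dot1l, the methyltransferase of histone H3 lysine 79, had 18.16 at 2382 bp, and Mpnd 18.07 at 2542 bp. Nfia, a transcription factor of the nuclear factor I family, had 17.82 at 2609 bp and the most tags of all 378 peaks, 706. Brd2, a bromodomain protein that binds acetylated histones, had 15.79 at 2711 bp. Cdca8, which codes for borealin of the chromosomal passenger complex, had 15.02 at 2247 bp, and the zinc finger gene Zfp111 16.63 at 3074 bp.

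The remaining peak of these 15 lay inside its host gene, yet the authors marked another gene as the closer one. Its fold was 22.06 (448 tags), 2854 bp inside 2900092E17Rik on chromosome 7 from 134160687 to 134160987, and its window lay 61 bp past the end of Prrt2, which the table marks as closer. Of the 378 peaks, 207 (54.8%, against 21.5% of all listed peaks) were also named for another gene, which they flanked downstream in 108 cases, upstream in 97 and in its 3' untranslated region in 2. The other gene was marked as the closer one in 15 of them. In each, the listed distance to that gene was below the distance to the host TSS, as for Prrt2 with 61 against 2854 bp. The mark thus compares distances to different points, since all 378 peaks lay inside their host genes. The share named for more than 1 gene was 62.5% at promoter peaks just downstream of the TSS (56.4% to 68.4%) and 47.0% at 5 to 20 kb (42.4% to 51.6%). Both of these intervals overlapped that of the 378 peaks (49.6% to 59.9%), and beyond 20 kb the share was 11.5% (9.95% to 13.3%). By tags, Nfia was followed by Hexim2 and then by Diap3, a formin that nucleates actin filaments, with 538 tags and a fold of 11.32 at 511 bp. Uhrf1 with 524 tags and the ubiquitin gene Ubb, with 510 tags and a fold of 8.42 at 532 bp, completed the 5 highest. Reads of Ubb could be shared with other ubiquitin genes, and how the aligner treated such reads is not stated.

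Most genes with an intragenic peak within 5000 bp had no listed peak of the promoter class. That class goes by the summit window, and the called region held the TSS in 63 of 311 intragenic peaks. A gene counted here as without a promoter peak can thus have enrichment called over its TSS. Of the 371 genes, 53 had a promoter peak as well (14.3%, 10.9% to 18.3%), against 52.9% of all gene symbols in the table. These 2 shares are not alike in make-up, since every one of the 371 genes needed a peak elsewhere than at its promoter. Genes of peaks at 5 to 20 kb had a promoter peak in 17.7% (14.3% to 21.5%) and those beyond 20 kb in 16.3% (14.2% to 18.7%), with intervals that overlapped that of the nearer peaks. At 500 to 1000 bp the share was 6 of 111 peaks (5.41%, 2.01% to 11.4%) and at 1000 to 2000 bp 18 of 97 (18.6%, 11.4% to 27.7%). A called region that holds the TSS leaves less room for a separate promoter peak. At 500 to 1000 bp 46 of 88 regions held it, and at 1000 to 2000 bp 15 of 83. The low share nearest the TSS should not be read as a trait of the genes alone, and whether peak calling lowers it was not tested. Another listed summit within 5000 bp was present at 69 of the 378 peaks (18.3%, 14.5% to 22.5%), against 6.49% of all listed peaks. It was 5.82% for intragenic peaks at 5 to 20 kb and 4.12% for promoter peaks just downstream of the TSS. The limit equals the distance limit by which the 378 peaks were chosen, so a promoter peak of the host gene mostly falls within it. For deeper peaks it does not, so these shares are not alike in make-up. Whether the choice of peaks accounts for the difference in share was not tested. In 48 of the 69 the nearest such summit was the promoter peak of the same gene, and in 14 it was another of the 378 peaks.

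Where a gene had both, the promoter peak was usually the stronger. The 54 intragenic peaks in question had a median fold of 4.37, and the strongest promoter peaks of their genes 6.76; the promoter peak was higher at 43 of the 54. Hnrnpab, an RNA-binding protein, had a fold of 25.90 at the promoter and 3.63 at 697 bp inside, with 990 bp between the summits. Abcf2, an ABC protein of the F family, had 19.79 and 4.33, and Spsb3, a SOCS box protein, 15.74 and 4.25. The reverse held at Nfia, with 3.06 at the promoter and 17.82 inside, and at Magi1, with 5.33 and 20.95. Tfam, the packaging factor of mitochondrial DNA, had 5.38 at the promoter and 12.88 at 3708 bp. Of the 34 peaks of fold 10 or more, 29 lay in genes with no promoter peak, and of the 344 of lower fold 295 did. The shares with a promoter peak were thus alike, 14.7% (4.95% to 31.1%) and 14.2% (10.7% to 18.4%). Tfam was named here after its values were seen.

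**Figure D3:**
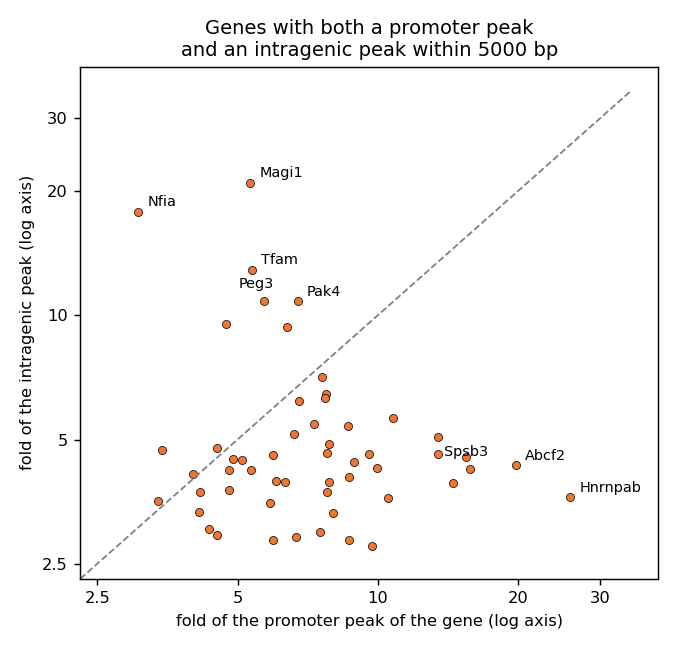
The 54 intragenic peaks of genes that also had a promoter peak, with the fold of the gene's strongest promoter peak on the horizontal and the fold of the intragenic peak on the vertical log axis; the dashed line marks equal folds. Most points (43 of 54) lie below the line, as at Hnrnpab, and Nfia, Magi1 and Tfam lie above it.

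In 7 genes there were 2 intragenic peaks within the limit. At Cdkn1a, which codes for the cyclin-dependent kinase inhibitor p21, both were strong. The first had a fold of 13.63 with 237 tags at 2455 bp, on chromosome 17 from 29230379 to 29230679, and the second 11.17 with 253 tags at 4265 bp, from 29232189 to 29232489. Cdkn1a had no promoter peak, and a further peak 40 bp past its end had a fold of 4.22. Akap7, an anchor of protein kinase A, had folds of 7.95 at 1648 bp and 7.78 at 2560 bp. Krt8, the hepatocyte keratin 8 gene, had 4.81 at 1479 bp and 7.73 at 3083 bp, and Zfp46 8.89 at 870 bp and 4.95 at 3852 bp.

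The 3 other genes of this kind were weaker. Brpf3, a subunit of a histone acetyltransferase complex, had 5.19 and 4.35, and the quinone reductase gene Nqo2 3.74 and 3.15. Cyp2b10, the xenobiotic-inducible cytochrome P450, had 2.86 at 1749 bp and 4.06 at 3209 bp beside a promoter peak of fold 8.66. It belongs to a family of similar genes, so reads could be shared among them. Cyp2b10 was the only one of the 7 with a listed promoter peak.

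**Figure D4:**
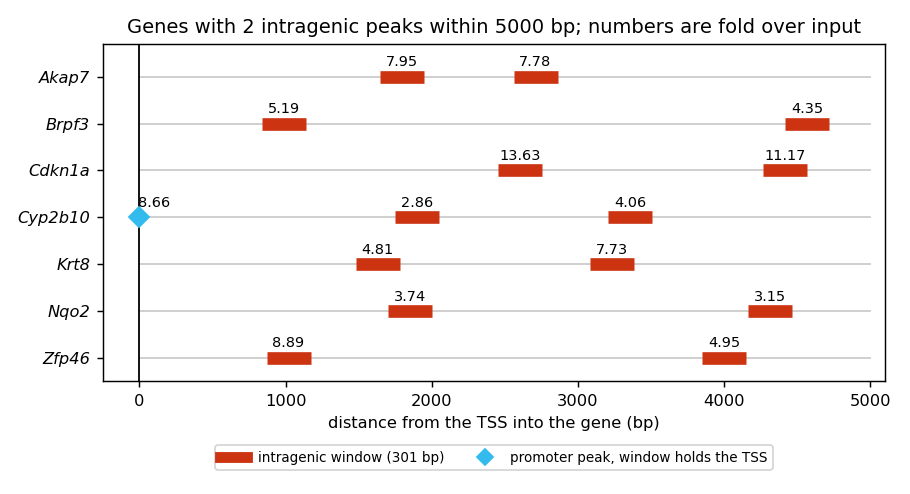
Summit windows (red, 301 bp, to scale) of the 7 genes with 2 intragenic peaks within 5000 bp, by distance from the TSS into the gene; the number above each window is the authors' fold over input and the blue diamond is a promoter peak whose window holds the TSS. Cdkn1a has the highest pair, 13.63 and 11.17, and Cyp2b10 alone has a promoter peak.

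Gene groups were read from 23 lists with 877 genes, of which 408 were named for any listed peak and 39 for one of the 378 peaks. This was 9.56% of the named list genes, against 6.64% of all gene symbols in the table. The counts of single lists below are to be read beside these shares. No test was run on the lists, and most of the counts are small. The lists are selections and do not hold every gene of a group. Of 42 named genes of DNA replication, 38 had a promoter peak and 1 an intragenic peak within 5000 bp. This was Orc5, a subunit of the origin recognition complex, with a fold of 4.70 and 315 tags at 1086 bp, in a region of 3936 bp that held the TSS. The lists of DNA repair and p53 (29 named genes) and of the E2F family and its partners (10 named genes) had 0. Mcm9, Fancl, Uhrf1 and Cdca8, with the strong peaks given above, stood outside these lists, so their counts do not describe all genes of replication, repair and division. In the list of cyclins, kinases and their inhibitors, 1 of 22 named genes, Cdkn1a, had such a peak. The cyclin T1 gene Ccnt1, not in that list and named after its value was seen, had a fold of 4.63 at 3620 bp.

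Of the 29 named immediate early, AP-1 and stress factor genes, 6 (20.7%) had an intragenic peak within 5000 bp. The share was 9.56% over all named list genes and 6.64% over all gene symbols. Fosb, a partner of Jun proteins in AP-1, had a fold of 14.53 with 121 tags at 815 bp. Jund had 7.96 at 1022 bp, Egr2, an early growth response factor, 5.32 at 2091 bp and Zfp36, which destabilises cytokine messages, 4.71 at 2154 bp. Klf13 had 4.62 at 1734 bp and Jun 4.12 with 323 tags at 2472 bp. Of the 6, Zfp36, Klf13 and Jun also had promoter peaks, with folds of 3.45, 9.58 and 4.02.

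In the lists of lipid, glucose and amino acid metabolism the folds ranged up to 7.06, at Mlxipl. In the list of lipogenesis and triglycerides 4 of 16 named genes (25%) had an intragenic peak within 5000 bp, and 5 others had a promoter peak. Over all gene symbols the share with such an intragenic peak was 6.64%. The count is small and was not tested. The peak of Mlxipl, which codes for the glucose-responsive factor ChREBP, lay at 804 bp with 300 tags in a region that held the TSS. Lpin1, a phosphatidate phosphatase gene, had a fold of 5.29 with 77 tags at 722 bp. Plin2, which codes for a lipid droplet coat protein, had a fold of 2.71 with 398 tags at 3326 bp, and the elongase gene Elovl6 3.12 with 333 tags at 4765 bp. Both stood in long regions, of 3921 and 3956 bp. In glucose metabolism 3 of 19 named genes had one: the lactate dehydrogenase gene Ldha with a fold of 5.05 at 3899 bp, the enolase gene Eno1 with 3.97 at 2380 bp and G6pdx, the first enzyme of the pentose phosphate pathway, with 3.63 at 2728 bp. Eno1 has close copies among pseudogenes. In fatty acid oxidation there were 2 of 15, Cpt1a, the carnitine palmitoyltransferase of the outer mitochondrial membrane, with 6.29 and 321 tags at 2211 bp, and Acaa2 with 3.56 at 4138 bp. Got1, an aspartate aminotransferase, was the 1 of 11 in amino acid metabolism, with 2.85.

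Of 47 genes of secreted hepatocyte proteins 6 were named for any peak, and 3 of them had an intragenic peak within 5000 bp. They were the fetuin gene Ahsg with a fold of 4.41, beside a promoter peak of 8.91, the inter-alpha-trypsin inhibitor gene Itih1 with 4.17 and the plasminogen gene Plg with 3.84. For drug metabolism and transport the count was 2 of 10, among them Cyp2b10 with the peaks given above. Among 13 named hepatocyte transcription factors Gata6 had one (3.48), and among 16 nuclear receptors and coregulators Nr2f2 (5.98 at 4828 bp) and Nr6a1 (4.05 at 891 bp). Nr2f2 also had a stronger listed peak in the class at 5 to 20 kb, of fold 11.74, with 2625 bp between the summits. The marker list of other liver cell types had 2 named genes of 31, 1 of them Pdgfra with a fold of 5.82 and 51 tags at 4708 bp.

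In the remaining lists, apoptosis had 2 of 17 named genes. Bcl2l11, which codes for the death-promoting protein Bim, had a fold of 6.13 at 1276 bp and Birc3, an inhibitor of apoptosis, 4.23 at 3216 bp. Chromatin modifiers had 3 of 22, with Brd2 far above the maintenance methyltransferase Dnmt1 (4.61 at 1112 bp, beside a promoter peak of 13.49) and the acetyltransferase Kat2b (2.91). Wnt, TGF-beta, Notch and Hippo signalling had 3 of 27, Amotl2 with 7.02, Tgif1 with 4.75 and Tcf7l2 with 3.33. Cytoskeleton and junction genes had 3 of 30, with Krt8, the myosin gene Myh9 (5.39) and the vimentin gene Vim (4.04 with 359 tags). Of 19 named genes in the ribosomal protein list Rpl23 had one, with a fold of 3.10. Rpl10a, not in that list and named after its value was seen, had 2.91 at 1352 bp beside a promoter peak of 6.68. Ribosomal protein genes have many pseudogenes that can share reads. The lists of cholesterol and lipoproteins (10 named genes), insulin and growth factor signalling (24), circadian clock (7) and autophagy and lysosome (14) had 0.

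**Figure D5:**
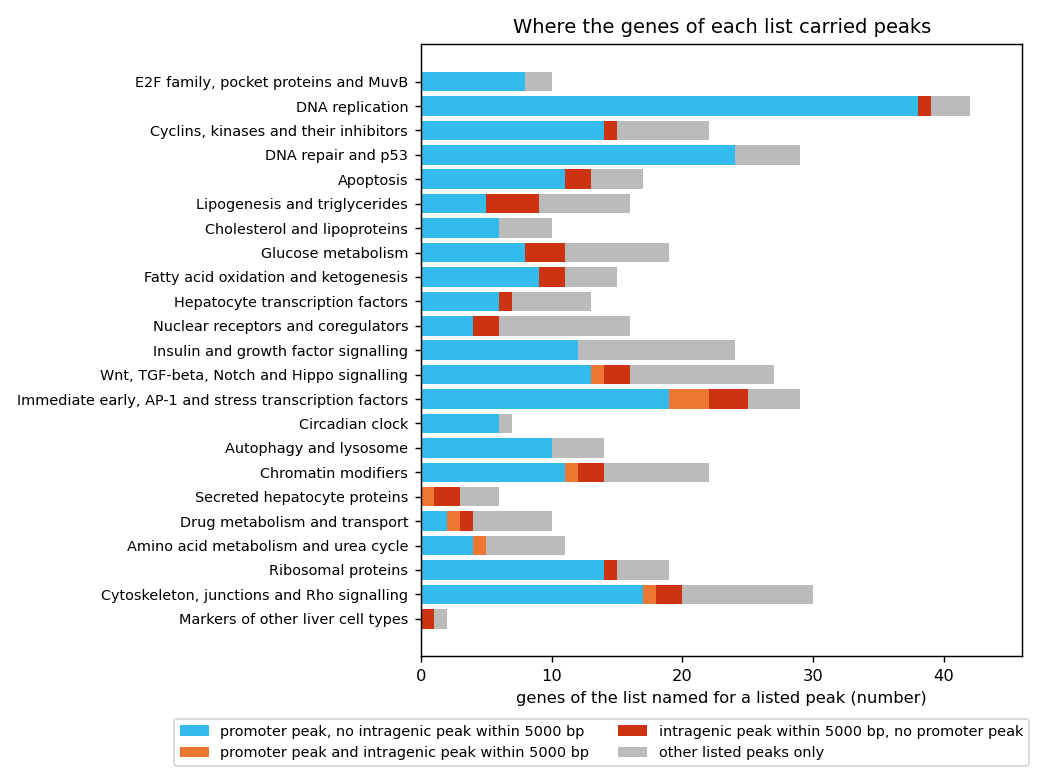
For each of 23 gene lists, the number of genes named for any listed peak (full bar), split by where their peaks lay; red and orange together are the genes with an intragenic peak within 5000 bp. In the DNA replication list 38 of 42 genes had a promoter peak and 1 an intragenic peak of this kind, and in the lipogenesis list the numbers were 5 and 4 of 16.

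Genes with several annotated starts were more frequent among the hosts than in RefSeq as a whole, as they were for deeper peaks. Of 371 host genes 304 were matched to the RefSeq promoter table by symbol or unique synonym, and 94 of these (30.9%, 25.8% to 36.4%) had more than 1 start there, against 15.4% of all its genes and 17.7% of genes with a promoter peak. For genes of peaks at 5 to 20 kb the share was 24.9% (20.5% to 29.6%) and beyond 20 kb 30.5% (27.4% to 33.7%), with intervals that overlapped that of the nearer peaks. Whether a peak lay at such a further start was not analysed here, since those starts are on another build. By chromosome, the 378 peaks made up from 2.86% of the listed peaks on chromosome 19 (6 of 210) to 9.49% on chromosome 10 (28 of 295), with 0 of 4 on Y.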

How the data were processed

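Primary mouse hepatocytes infected with Ad-E2F1 gave 1 E2F1 ChIP record and 1 input record. Reads were aligned with Bowtie2 (2.1.0) to mm9, per the submitters' processing notes. MACS made the peak calls, per the file headers, with a version and options not given in the sources used here. Each peak has, in the deposited table, the tag count of the called region, the pileup signal at the summit, and the fold, a ratio of ChIP tags to expected background. The deposited score is the negative log10 p-value multiplied by 10, and the authors give the false discovery rate in percent. The meaning of 1 more column is not stated, and it was not used. Read totals are not given, so the depth per library is unknown.

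Here 6887 pairs of a peak and a gene were grouped into 5667 peaks with pandas (2.3.3) and classed by the authors' location and distance. Shares have exact Clopper-Pearson 95% intervals (SciPy 1.17.1) and medians order-statistic intervals; both cover counting over peaks only. No test between peaks was run, since peaks of 1 table are not replicates. The classing was tested on simulated data. Gene lists and peaks were chosen with earlier results of these data known. Genes were named by rule: the 15 peaks of highest fold, the 5 with most tags, the 3 of lowest fold, the 3 nearest and 3 farthest from the TSS, genes with 2 or more such peaks, and list genes. Strands and promoter sequences came from RefSeq tables of GRCm38.p6; no coordinate was carried between builds. Alternatives were other distance limits, stricter peak thresholds, another promoter definition, peaks with intragenic entries only and closest genes only. The values of 1 list gene are not reported here.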

Additional observations from a re-analysis of the deposited data

How the results depend on the processing

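Of 44 values under alternatives, 28 stayed within the interval of the reported value, or within 1.5 times for the count. The share of the list was 5.86% with a distance limit of 4000 bp, 5.51% with promoters taken as 850 bp to either side of the TSS, and 3.02% (171 peaks) with only peaks whose entries all lay inside genes, where the median was 188 tags. With a false discovery rate of 5% or less the medians were a fold of 5.55, 181 tags and a rate of 0.905%, and 12.6% of the peaks had a fold of 10 or more. With a score of 100 or more there were 171 peaks, with medians of 6.69 for fold, 202 for tags and 0.58% for the false discovery rate; 19.9% had a fold of 10 or more, and 8.93% of the genes had a promoter peak. Stricter thresholds drop weak peaks and so raise these strength values by construction. Another listed summit lay within 10000 bp of 23.5% of the peaks. No paired analysis was possible because the table holds 1 ChIP against 1 input. Depth is unknown, and the table leaves out weaker regions, so an unlisted promoter does not show that E2F1 was absent there.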

Other observations

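Peaks of fold 10 or more outside the 15 strongest, named here after their values were seen, also lay in genes of varied function. Cyp26b1, which codes for an enzyme that degrades retinoic acid, had a fold of 14.70 with 170 tags at 3232 bp, and Gnat1, the transducin subunit of rod cells, the same fold of 14.70 with 144 tags at 3302 bp. Neither gene had a listed promoter peak. Tbk1, a kinase of innate immune signalling, had 12.32 with 375 tags at 1314 bp, and Nup160, a scaffold nucleoporin, 11.79 with 339 tags at 1897 bp. Sfmbt1, a Polycomb-related protein, had 11.74 at 847 bp, and Parva, which links integrins to actin, 11.62 at 758 bp. Nono, an RNA-binding protein of paraspeckles, had 11.47 at 848 bp on chromosome X in a region that held the TSS. Pon2, a paraoxonase, had 10.75 at 712 bp, also in a region that held the TSS.

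The imprinted gene Peg3 had a fold of 10.83 at 1845 bp beside a promoter peak of 5.70, and the kinase gene Pak4 the same fold of 10.83 at 964 bp beside a promoter peak of 6.73. In both the intragenic peak was the stronger one.

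Of the 237 matched genes with an intragenic peak within 5000 bp and no promoter peak, 7 had an E2F motif before a RefSeq start. Their share, 2.95%, was near the 3.10% over all genes of RefSeq. Besides Uhrf1 the 7 genes included Fosb, with the intragenic peak of fold 14.53, and Suv39h2, a methyltransferase of histone H3 lysine 9, with a fold of 6.56 at 594 bp. The region of the Suv39h2 peak held the TSS and that of the Fosb peak did not. The others were Tcirg1 (6.67), Hmga2 (4.49), Rassf1 (3.90) and Ube2e2 (3.15).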
